A study of Mus musculus with 24 samples.

Results

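The aorta of wild-type mice was examined 6 months after a 2-week infusion of angiotensin II (Ang II), which raises blood pressure. Ang II or its vehicle (sham) had been delivered under the skin by osmotic minipump, and RNA of whole aortic homogenates was sequenced. All libraries labelled with the 6-month time were used, 4 from sham and 4 from Ang II mice, out of 24 in the series. The other 16 were taken 2 or 4 months after the infusion and serve here only for comparison. The series as a whole concerns Axl, a receptor tyrosine kinase, in hypertensive disease of the aorta. Of the 37606 genes in the count table, 19343 passed a filter on low counts at this time and were tested. Both groups were wild type, and the labels give no age, sex, dose or hour of harvest. Nor is it stated that each replicate is its own mouse, and every p-value rests on the spread among these libraries alone, which may be technical.

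As background, the aortic wall holds contractile smooth muscle between sheets of elastin, an inner lining of endothelium and an outer layer of fibroblasts, collagen, mast cells and macrophages, and it is wrapped in fat. Ang II, a peptide hormone, acts through the receptor encoded by Agtr1a to contract smooth muscle and drive matrix production. Vascular cells also carry a circadian clock, in which the activators ARNTL, CLOCK and NPAS2 switch on their own repressors (PER, CRY and NR1D proteins) and output factors such as DBP and TEF. Levels below are in CPM, the usual unit for a gene's counts relative to the total of its library, here scaled between the 8 libraries by TMM, an edgeR method that removes differences in composition. Effects are log2 fold changes of Ang II over sham with their standard error (SE), and lists of 4 values run from replicate 1 to replicate 4.

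Each library held between 37639960 and 58676098 counts, and between 12477831 and 34905962 without genes of chromosome M, ribosomal RNA and 7SK RNA. Genes of chromosome M, the mitochondrial genome, took 31.75% to 59.31% of all counts, against 7.72% to 16.32% in the 16 earlier libraries. The share was 41.78 ± 12.49% in sham and 44.47 ± 8.51% in Ang II (mean ± SD, n = 4 each), a difference of 2.69 points that an exact two-sided permutation test did not distinguish from 0 (p = 0.743, where the smallest possible is 0.0286). Ang II replicate 4 stood apart, with the fewest counts outside those 3 kinds of gene of all 24 libraries, 136416 unscaled CPM for a ribosomal RNA gene (CT010467.1, at most 3325 elsewhere at this time) and a TMM factor of 0.506 where the other 7 libraries lay between 0.831 and 1.33. Sham replicate 1 had the highest chromosome M share and the lowest sums of airway and skeletal muscle markers. On principal components the groups were mixed along the first axis (42.9% of the variance). In bulk RNA, fewer cells of a type and less RNA per cell cannot be told apart.

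Acta2 and Myh11, which define smooth muscle, were at 173 to 354 and 147 to 275 CPM over the 8 libraries, and Eln, which encodes elastin, at 98.03 to 159 CPM. By these genes the labelled tissue was present in every library. Tagln, another smooth muscle gene, was at only 0.765 to 1.64 CPM, and the reason was not tested. Other tissues were present too, and their amount differed between libraries, as the plot of summed marker lists shows. Airway epithelium markers summed to between 61.6 and 4835 CPM in sham and between 1629 and 3510 CPM in Ang II, and general adipocyte markers to between 6492 and 8956 and between 6712 and 9537 CPM. Skeletal muscle markers summed to 38.5, 471, 379 and 504 CPM in sham and to 519.9, 832, 7389 and 6076 CPM in Ang II, so that Ang II replicates 3 and 4 held far more of them than any other library.

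**Figure D1:**
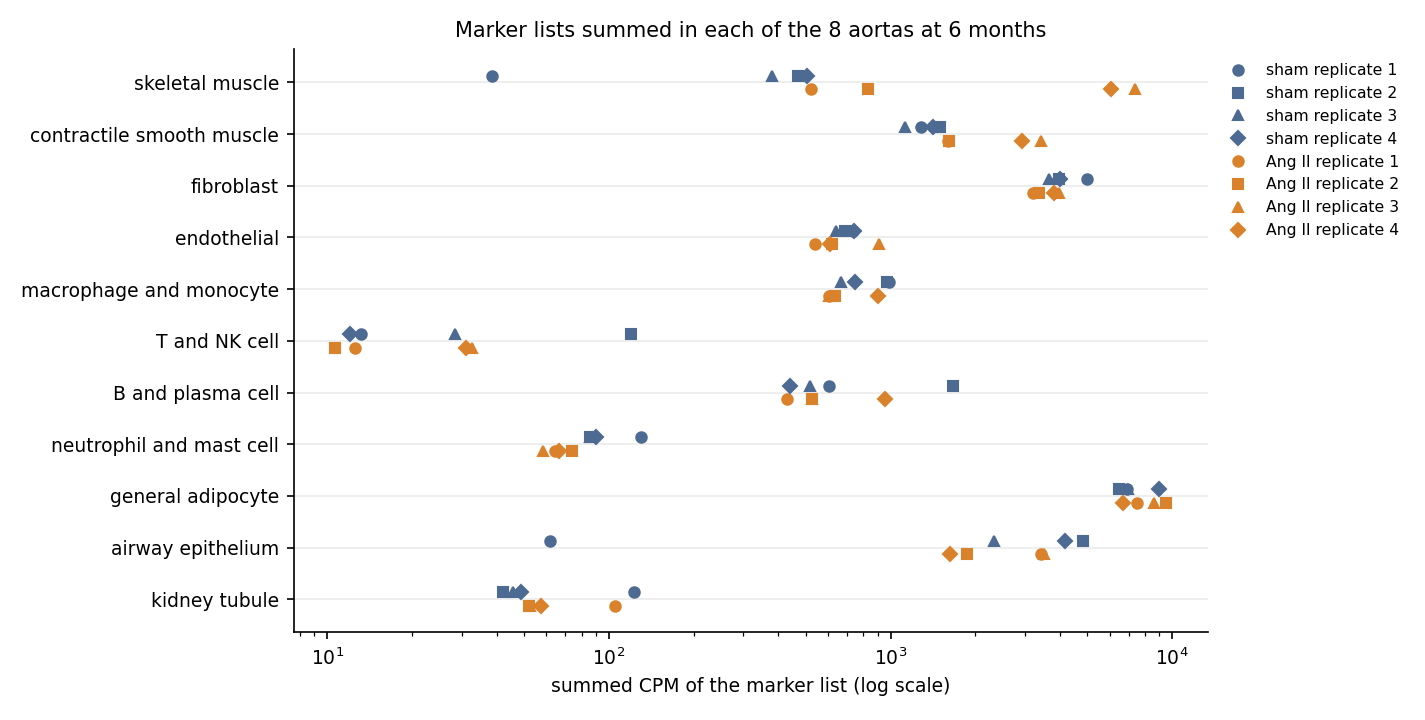
Summed CPM (log scale) of 11 marker lists in each aorta at 6 months, with 1 symbol per replicate, sham in blue and Ang II in orange. Ang II replicates 3 and 4 lie at 7389 and 6076 CPM for skeletal muscle, and the mast cell and neutrophil sums of the groups do not overlap.

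No gene passed the test between Ang II and sham. With edgeR's quasi-likelihood F test, 0 of 19343 genes (0.0%) had a Benjamini-Hochberg adjusted p under 0.05, and 976 (5.05%) had an unadjusted p under 0.05, 586 of them higher and 390 lower in Ang II. The smallest adjusted p was 0.294, for Mcf2l. It was 0.683 for Scimp, Myh2, Lrtm1 and Dysf and at least 0.922 for the other genes named below. All 4 Ang II libraries lay above all 4 sham libraries for 271 genes (1.40%) and below them for 333 (1.72%), 604 genes in all (3.12%). Fold changes lay above 0 for 45.2% of genes and below 0 for 54.8%, with a median of -0.025. Counts were also simulated at the same depth with each gene's estimated spread. In them this edgeR test recovered 80.3% of planted 4-fold changes, 12.9% of 2-fold and 0% of 1.5-fold changes. The changes were planted only in genes with an average log2 CPM above 0, and recovery in lower genes was not tested. Each gene was drawn independently, so variation that many genes of a library share was not simulated, and recovery in the real counts may differ. The differences below are given as values.

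Clock genes were the list with the most members apart. Of 19 clock genes measured, 13 had a fold change above 0 and 6 below 0. In 8 the groups did not overlap, 6 with Ang II above sham and 2 below, against 1.40% and 1.72% of all genes, and 8 and 4 members had an unadjusted p under 0.05 in the same directions (3.03% and 2.02% of all genes). The division into 13 and 6 was the same without Ang II replicates 3 and 4, without sham replicate 1 and Ang II replicate 4, and with the skeletal muscle sum as a covariate, all chosen after seeing the data. With the covariate the median was 0.17 where all 8 libraries gave 0.33 without it, and 5 members higher had an unadjusted p under 0.05 (4.04% of all genes). Arntl, Bhlhe41 and Npas2 were named by a fixed rule, and the other clock genes here after their values were seen.

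The windows before the start sites of 4 clock genes are shown because they hold the letters that clock factors are known to bind. They come from RefSeq (build GRCm38.p6), run 5′ to 3′ on the gene's strand, and cover the 250 bases before the start. Capitals mark the E-box CACGTG, the site of ARNTL with CLOCK or NPAS2, and the D-box TTATGTAA, the site of DBP, TEF and the repressor NFIL3, searched on both strands.
Ciart (chr3:95882229-95882478, - strand): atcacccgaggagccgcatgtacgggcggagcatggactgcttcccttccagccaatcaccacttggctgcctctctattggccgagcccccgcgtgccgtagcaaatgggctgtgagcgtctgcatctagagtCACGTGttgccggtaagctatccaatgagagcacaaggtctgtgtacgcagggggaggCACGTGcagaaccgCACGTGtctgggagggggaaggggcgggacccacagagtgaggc
Bhlhe41 (chr6:145865421-145865670, - strand): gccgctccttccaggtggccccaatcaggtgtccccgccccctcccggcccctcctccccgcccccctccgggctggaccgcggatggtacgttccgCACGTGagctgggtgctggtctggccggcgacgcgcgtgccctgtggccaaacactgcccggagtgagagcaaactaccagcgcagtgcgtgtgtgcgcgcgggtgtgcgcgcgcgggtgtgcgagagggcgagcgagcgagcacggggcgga
Tef (chr15:81811164-81811413, + strand): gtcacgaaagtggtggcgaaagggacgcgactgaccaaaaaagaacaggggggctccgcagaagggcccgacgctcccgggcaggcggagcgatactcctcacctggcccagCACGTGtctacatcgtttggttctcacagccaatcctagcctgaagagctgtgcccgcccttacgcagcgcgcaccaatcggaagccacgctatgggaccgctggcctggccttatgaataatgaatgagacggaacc
Per3 (chr4:151044666-151044915, - strand): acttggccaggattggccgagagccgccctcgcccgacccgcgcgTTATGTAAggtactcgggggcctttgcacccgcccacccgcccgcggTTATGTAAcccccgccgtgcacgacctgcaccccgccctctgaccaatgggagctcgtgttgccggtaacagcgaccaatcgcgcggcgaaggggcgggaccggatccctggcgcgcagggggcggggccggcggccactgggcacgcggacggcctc
The 16 clock genes with a window had 21 in all, since some have more than 1. An E-box was in 6 of the 21 (of Per1, Cry1, Tef with 2 windows, Ciart and Bhlhe41) and a D-box in 1 (of Per3, with 2 copies), where 6.02% and 0.819% of 32851 RefSeq promoter windows of the same length hold them. The RORE, an element that NR1D receptors bind, matched 0 of the 21 and 0.332% of all windows. Per2 and Bhlhe40 had no window. The genes of the 4 windows printed and Per1 had fold changes above 0, whereas Cry1, whose window also holds an E-box, lay below 0. A match describes letters only.

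Among the activators, Arntl (ENSMUSG00000055116.8, chr7:113207465-113314126, build mm10) was at 9.88, 12.6, 14.8 and 10.1 CPM in sham and 6.96, 8.04, 7.38 and 7.78 CPM in Ang II. Every Ang II library lay below every sham library, with a fold change of -0.65 ± 0.16. Npas2, which can take the place of CLOCK, was at 4.67, 6.22, 6.66 and 5.55 CPM in sham and 2.68, 3.23, 3.94 and 2.94 CPM in Ang II (-0.85 ± 0.19), again without overlap. Nfil3, a repressor of D-box genes, lay at 10.7, 11.4, 15 and 17.7 against 8.31, 11.9, 9.87 and 6.26 CPM (-0.59 ± 0.23), and here the groups overlapped.

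The repressors and output factors given next had the opposite sign. Not every repressor did, since Nfil3 and Cry1 lay lower in Ang II, as Arntl and Npas2 did. Dbp, an output factor, was at 16.6, 11.8, 10.2 and 12.8 CPM in sham and 21.4, 16.7, 30.5 and 26.4 CPM in Ang II (0.89 ± 0.21), and its groups did not overlap. Bhlhe41, a repressor of the activators, was at 7.65, 7.05, 7.05 and 8.65 against 11.4, 10.1, 12.7 and 12.2 CPM (0.61 ± 0.13) and also did not overlap. Per2 lay at 11.8, 9.82, 10.01 and 13.6 against 18.6, 13.5, 22.1 and 20.4 CPM (0.72 ± 0.18), with Ang II replicate 2 just under the highest sham library.

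Per3 was at 24.1, 20.2, 18.9 and 23.9 against 43.4, 29.6, 27.5 and 26.4 CPM (0.54 ± 0.18), the Ang II values being led by replicate 1. Of the receptors that repress Arntl, Nr1d1 was at 55.9, 50.5, 65.1 and 62.7 against 70.1, 65.2, 101 and 107 CPM (0.55 ± 0.18) and Nr1d2 at 47.9, 41.2, 39.9 and 48.5 against 76.8, 66.5, 62.3 and 54.1 CPM (0.55 ± 0.13), neither with overlap. Tef, an output factor, lay at 68.1, 64.7, 67.6 and 95.2 against 123, 96.3, 108 and 83.1 CPM (0.47 ± 0.17), and Ciart, a repressor, at 0.903, 0.669, 0.765 and 0.921 against 1.23, 0.932, 2.54 and 1.42 CPM (0.91 ± 0.33). Only Tef of these 4 overlapped, through sham replicate 4 and Ang II replicate 4. The hour at which each aorta was taken is not in the labels, and its part in these values was not tested.

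**Figure D2:**
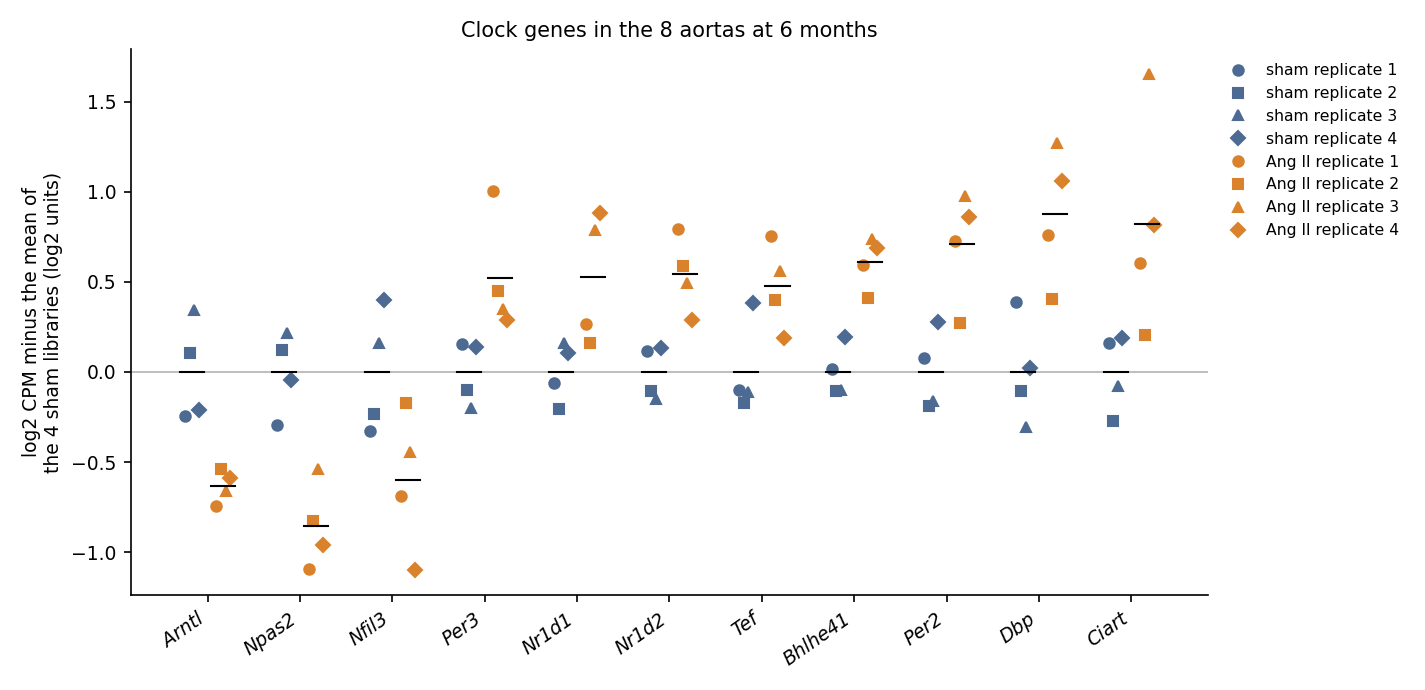
log2 CPM of 11 clock genes minus the mean of the 4 sham libraries, with 1 symbol per replicate and a bar at each group mean. Arntl, Npas2 and Nfil3 have group means below sham and the other 8 above, with fold changes between -0.85 and 0.91.

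The NR4A receptors, a family of 3 nuclear receptors that cells switch on within minutes of a stimulus, all lay lower in Ang II. Nr4a1 (chr15:101266846-101274792) was at 74.4, 59.3, 54.7 and 41.5 CPM in sham and 26.8, 20.6, 39 and 24.5 CPM in Ang II (-1.05 ± 0.23). Nr4a2 was at 6.35, 6.48, 6.41 and 5.24 against 4.603, 3.33, 3.79 and 3.31 CPM (-0.7 ± 0.17), and Nr4a3 at 16.3, 13.7, 14.2 and 12.3 against 8.12, 6.84, 8.76 and 10.2 CPM (-0.74 ± 0.15). For none of the 3 did the groups overlap. They were the only genes apart among 20 immediate early genes measured, of which 10 lay above and 10 below 0 (median 0.04). Over all genes 1.72% were apart below sham.

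Other immediate early genes were high in 2 libraries alone. Fos, a subunit of the factor AP-1, was at 7.86, 3.98, 3.93 and 3.21 CPM in sham and 2.64, 3.67, 88.5 and 28.98 CPM in Ang II (2.71 ± 1.02). Egr1, a zinc finger factor, was at 11.8, 9.58, 15.1 and 10.9 against 9.86, 8.82, 75.3 and 44.3 CPM (1.54 ± 0.64), and Zfp36, which destabilises cytokine messages, at 17.1, 15.5, 19.1 and 20.5 against 20.2, 19.8, 73.1 and 53.7 CPM (1.21 ± 0.41). In each, Ang II replicates 3 and 4 were the highest of the 8 libraries, and they are the same libraries that held the skeletal muscle markers. Without them, the fold change was -0.59 for Fos and -0.35 for Egr1, and 17 of the 20 members lay below 0 (median -0.61), 7 of them at an unadjusted p under 0.05, where 6.08% of all genes were lower at that p. Without sham replicate 1 and Ang II replicate 4, 13 lay above and 7 below 0.

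Over all 8 libraries, skeletal muscle genes had the largest median fold change of the lists. All 13 markers measured lay above 0, between 1.74 and 7.0 with a median of 3.5, all with an unadjusted p under 0.05, and 5 had Ang II entirely above sham. Over all genes 3.03% were higher at that p and 1.40% were apart above sham. Myh2, a fast myosin heavy chain (chr11:67171027-67197517), was at 0.239, 0.223, 0.228 and 0.302 CPM in sham and 11.7, 2.09, 86.9 and 28.6 CPM in Ang II (7.0 ± 1.12). Pvalb, which buffers calcium in fast fibres, was at 0.106, 1.41, 1.36 and 2.44 against 6.73, 4.91, 76.9 and 22.1 CPM (4.35 ± 1.07). Mybpc2, the fast myosin binding protein, was at 4.22, 11.02, 11.2 and 11.6 against 13.9, 20.2, 219 and 158 CPM (3.43 ± 0.89).

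In these 3 genes Ang II replicates 3 and 4 carried most of the signal, yet Ang II replicates 1 and 2 also lay above every sham library. This was not so for skeletal actin, Acta1, at 3.96, 177, 154 and 219 CPM in sham and 198, 347, 2488 and 2158 CPM in Ang II (3.23 ± 1.16), where sham replicate 4 exceeded Ang II replicate 1. One marker of the list, Tnnc2, was at 0 to 0.082 CPM in all libraries. Without Ang II replicates 3 and 4 the 13 markers stayed above 0, but their median was 0.83 and 2 had an unadjusted p under 0.05, where 5.72% of all genes were higher at that p. The authors' counting of reads shared by near-identical myosin genes is not given in the sources used here, so the values of single myosins are uncertain.

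**Figure D3:**
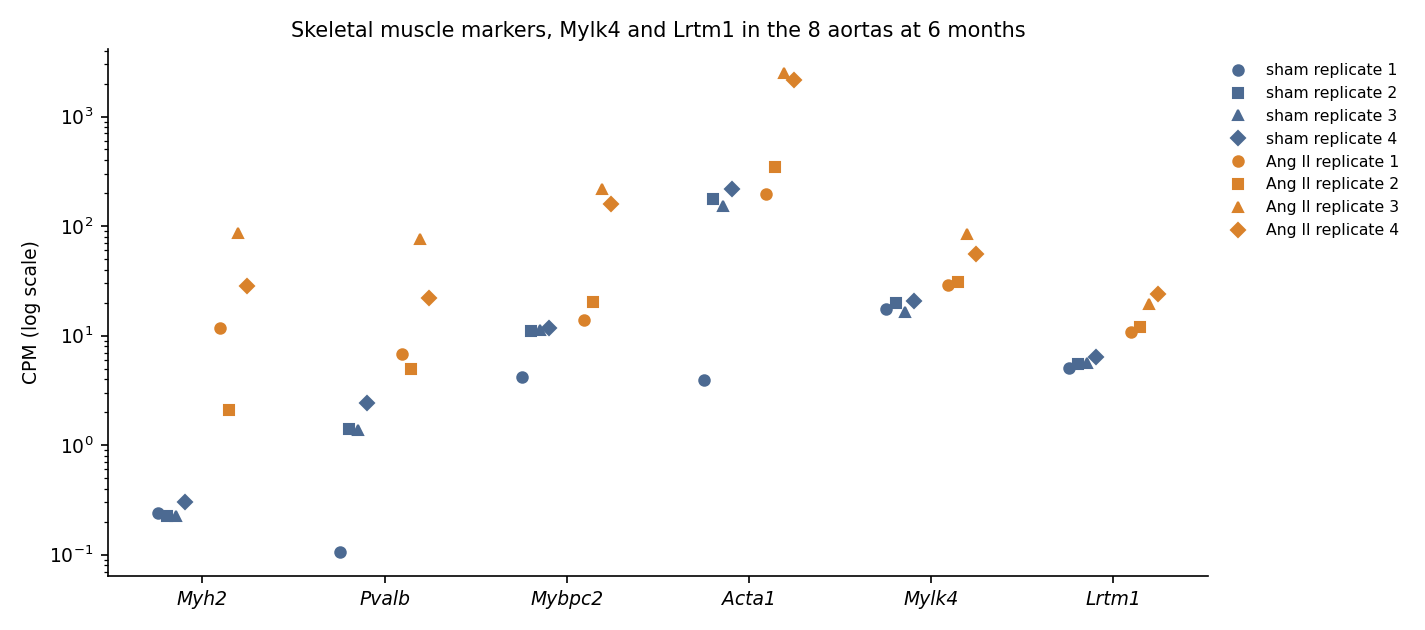
CPM (log scale) of 4 skeletal muscle markers and of Mylk4 and Lrtm1 in each aorta at 6 months, with 1 symbol per replicate. Sham replicate 1 is lowest for Pvalb, Mybpc2 and Acta1, and Ang II replicates 3 and 4 are highest for each gene.

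Several genes with small p values had all 4 Ang II libraries above all 4 sham libraries. Mcf2l, an exchange factor for small GTPases (ENSMUSG00000031442.20, chr8:12873806-13020905), was at 22.2, 23.3, 26.1 and 24.9 CPM in sham and 38.7, 46.7, 45.7 and 44.6 CPM in Ang II, a 1.82-fold ratio (0.86 ± 0.1). Dysf, which encodes the membrane repair protein dysferlin, was at 18.4, 18.5, 18.1 and 17.6 against 27.3, 25.1, 30.6 and 25.6 CPM (0.58 ± 0.1). Both groups were narrow, and the gap between them exceeded the range within either.

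Cacna2d1, a subunit of voltage-gated calcium channels, was at 17.7, 19, 15.6 and 20.5 against 27.4, 29.9, 45.8 and 37.2 CPM (0.94 ± 0.17). Car4, a membrane-bound carbonic anhydrase, was at 4.62, 4.29, 5.89 and 5.06 against 6.94, 9.47, 8.496 and 9.203 CPM (0.78 ± 0.16), and Cep85l, a centrosomal protein gene, at 18.1, 16.4, 15.1 and 16.1 against 20.6, 24.9, 28.9 and 26.9 CPM (0.63 ± 0.13). Lrtm1 (1.56 ± 0.26) and Mylk4, a myosin light chain kinase (1.44 ± 0.33), were apart as well and, like Cacna2d1, highest in Ang II replicates 3 and 4. The share of skeletal muscle RNA in these values was not tested for each gene.

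Contractile smooth muscle genes lay slightly above sham. Of 20 measured, 19 had a fold change above 0 (median 0.41), 8 with an unadjusted p under 0.05 and 3 with all Ang II libraries above all sham libraries. Over all genes 45.2% lay above 0, 3.03% were higher at that p and 1.40% were apart above sham. Mylk, the kinase that starts contraction, was at 74.1, 85.8, 63.7 and 80.2 CPM in sham and 122, 102, 120.0 and 89.98 CPM in Ang II (0.51 ± 0.14). Ppp1r12b, a subunit of the phosphatase that ends it, was at 91.9, 85.3, 73.3 and 87.03 against 115, 96.1, 141 and 124 CPM (0.49 ± 0.14). Lmod1, which starts actin filaments, was at 18.03, 18.9, 13.03 and 17.7 against 19.1, 19.7, 38.7 and 45.2 CPM (0.86 ± 0.29), the higher values coming from Ang II replicates 3 and 4.

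The defining contractile genes showed no such gap. Acta2 lay at 179, 273, 205 and 299.7 against 354, 304, 266 and 173 CPM (0.2 ± 0.25) and Myh11 at 161, 209.6, 147 and 209.7 against 206, 171, 275 and 250.5 CPM (0.31 ± 0.19), with overlapping groups. Des, an intermediate filament gene that skeletal and heart muscle also express, was at 79.02, 132, 85.6 and 99.5 against 103, 165, 758 and 622 CPM (2.06 ± 0.6). The summed contractile list was highest in Ang II replicates 3 and 4, at 3419 and 2934 CPM, against 1129 to 1613 CPM in the others. Without Ang II replicates 3 and 4, 18 of 20 members lay above 0 (median 0.31) and 4 had an unadjusted p under 0.05 (5.72% of all genes then). With the skeletal muscle covariate it was 16 of 20 (median 0.27) and 2 (4.04% of all genes). Of the smooth muscle channels, 13 of 17 lay above 0, and Kcna5, a potassium channel, was at 8.71, 7.66, 9.51 and 9.62 against 12.7, 16.9, 12.04 and 11.8 CPM (0.59 ± 0.15), without overlap.

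Matrix genes lay below sham. Of 16 collagen chains measured, 15 had a fold change below 0 (median -0.27) and 4 had every Ang II library below every sham library. The same held for 20 of 21 elastic fibre genes (median -0.21, 2 apart), 14 of 15 fibroblast genes (median -0.24, 2 apart) and 13 of 16 matrix proteases and inhibitors (median -0.32, 3 apart below and 1 above), against a median of -0.025 and 54.8% below 0 over all genes. Over all genes 1.72% were apart below sham and 1.40% above.

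Fbn1, which encodes the microfibril protein fibrillin-1 (chr2:125300594-125507993), was at 201, 230.1, 193 and 200.1 CPM in sham and 151, 121, 121 and 99.9 CPM in Ang II (-0.74 ± 0.15). Fbln5, needed to assemble elastic fibres, was at 73.3, 57.9, 52.3 and 69.6 against 50.1, 50.1, 45.1 and 38.1 CPM (-0.46 ± 0.14), and Eln itself at 134, 144, 120.0 and 159 against 118, 98.03, 141 and 118 CPM (-0.23 ± 0.15). The groups were apart for Fbn1 and Fbln5 and overlapped for Eln. Leaving out Ang II replicates 3 and 4 left 17 of 21 elastic fibre genes below 0, and the skeletal muscle covariate 13 of 21 (median -0.14), where 51.6% of all genes lay below 0. Without sham replicate 1 and Ang II replicate 4 the median was -0.11 for this list and -0.15 for fibroblast genes.

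Among collagens, Col14a1, a chain that binds the surface of other fibrils, was at 182, 132, 121 and 152 CPM in sham and 102, 102, 106 and 86.7 CPM in Ang II (-0.56 ± 0.15). Col3a1, a main fibrillar chain of arteries, was at 772, 441, 499 and 527 against 429, 406, 380.3 and 399.7 CPM (-0.47 ± 0.2), and Col5a1, which sets fibril width, at 85.3, 78.4, 68.98 and 70.2 against 66.3, 56.8, 60.8 and 61.2 CPM (-0.3 ± 0.11). These 3 did not overlap, while Col1a1, at 385, 309, 299 and 341 against 336, 239, 233 and 224 CPM (-0.37 ± 0.18), did, through Ang II replicate 1. The highest sham value of Col14a1, Col3a1 and Col1a1 was that of replicate 1, the library with the highest chromosome M share. Without it and Ang II replicate 4, 15 of 16 collagens still lay below 0 (median -0.23), while over all genes 9637 of 19864 then did. Of the collagens, 2 were then lower at an unadjusted p under 0.05 (2.0% of all genes), where all 8 libraries gave 5 (2.02%). With the skeletal muscle covariate 14 of 16 lay below 0 (median -0.19), with 0 lower and 1 higher at an unadjusted p under 0.05 (4.98% and 4.04% of all genes).

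Pi16, a marker of adventitial fibroblasts, was at 148, 133, 112 and 151 CPM in sham and 85.1, 86.99, 97.5 and 76.6 CPM in Ang II (-0.65 ± 0.14), without overlap. Mmp14, a membrane-bound protease that activates other proteases, was at 29, 32.3, 28.2 and 26.2 against 20.4, 20.1, 21.6 and 22.98 CPM (-0.44 ± 0.1). Mmp12, the elastase of macrophages, was at 0.664, 1.17, 0.579 and 0.634 against 0.397, 0.29, 0.279 and 0.421 CPM (-1.16 ± 0.32). Both proteases were apart. Timp4, an inhibitor of such proteases, went the other way, at 21.4, 19.7, 24.03 and 25.9 against 36.1, 41.5, 29.9 and 25.9 CPM (0.55 ± 0.16), and was the single member apart above sham, its lowest Ang II value lying just over the highest sham value.

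**Figure D4:**
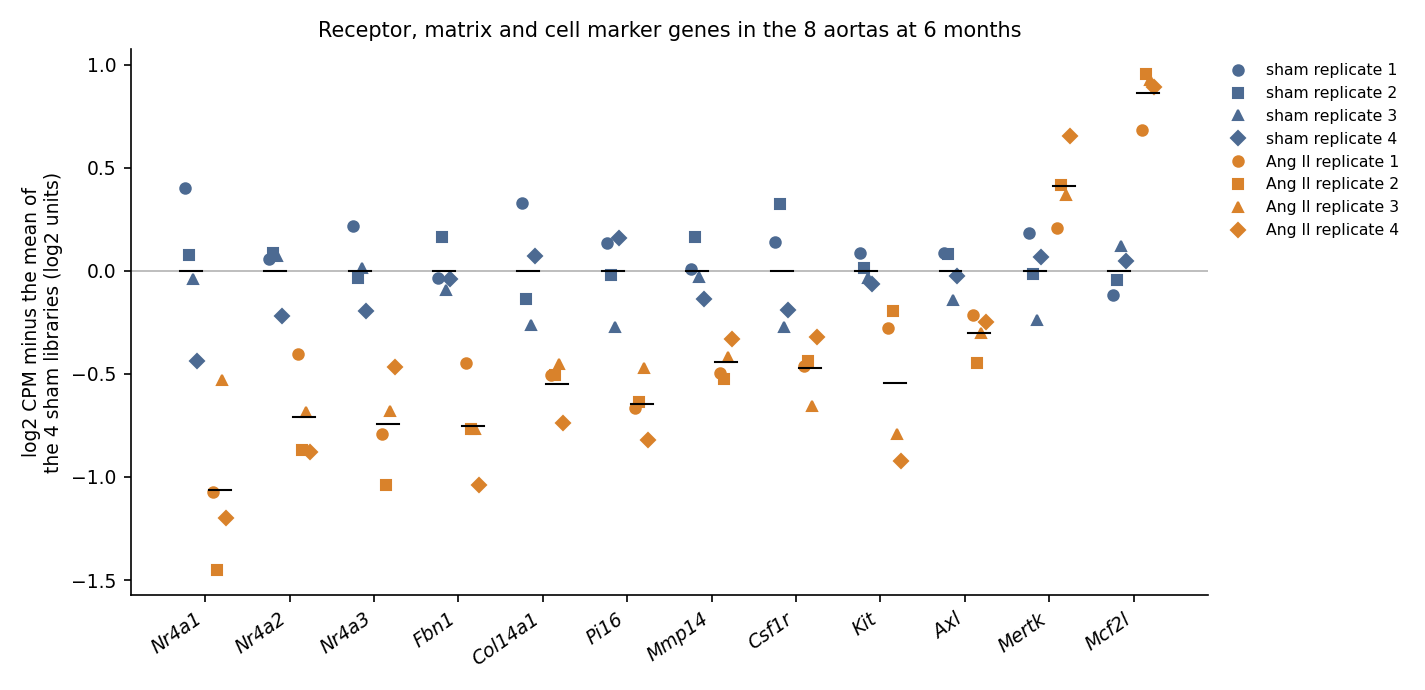
log2 CPM of 12 genes minus the mean of the 4 sham libraries, with 1 symbol per replicate and a bar at each group mean. The Ang II libraries lie below sham for the first 10 genes, from Nr4a1 to Axl, and above it for Mertk and Mcf2l, with no overlap in any of the 12.

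Several mast cell genes lay lower in every Ang II library than in any sham library. Of 12 genes on the neutrophil and mast cell list that were measured, 10 lay below 0 (median -0.52), and the 4 that were apart are all mast cell genes. Over all genes 1.72% were apart below sham. Mcpt4, a mast cell chymase, was at 30.2, 19.5, 17.7 and 19.7 CPM in sham and 12.9, 15.2, 12.3 and 12.8 CPM in Ang II (-0.71 ± 0.18). Cma1, the chymase that can make Ang II from its precursor, was at 26.1, 14.1, 14.9 and 19.8 against 13.1, 13.7, 11.1 and 12.8 CPM (-0.56 ± 0.2). Tpsb2, a tryptase, was at 30.9, 19.2, 19.2 and 20.2 against 12.7, 15.9, 13.8 and 15.8 CPM (-0.62 ± 0.18), and Kit, the receptor on which mast cells depend, at 15.6, 14.8, 14.3 and 14.02 against 12.1, 12.8, 8.46 and 7.73 CPM (-0.51 ± 0.18). Sham replicate 1 was the highest library for all 4, and the summed list was 129.8, 85.5, 85.9 and 90.2 CPM in sham and 64.2, 74.1, 58.2 and 66.5 CPM in Ang II. At an unadjusted p under 0.05, 5 members were lower with all 8 libraries (2.02% of all genes). It was 3 without sham replicate 1 and Ang II replicate 4 (2.0% of all genes) and 2 without Ang II replicates 3 and 4 (6.08%). With the skeletal muscle covariate 1 was (4.98% of all genes), 8 of 12 lay below 0 and the median was -0.19.

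Macrophage genes also lay low, 16 of 18 below 0 with a median of -0.28, though only Csf1r was apart. Csf1r, the receptor that keeps macrophages alive, was at 92.1, 105, 69.4 and 73.3 CPM in sham and 60.9, 61.7, 53.1 and 67 CPM in Ang II (-0.49 ± 0.15). Mrc1, the mannose receptor, was at 59.3, 62.4, 52.4 and 63.3 against 55.1, 51.6, 41.3 and 41.6 CPM (-0.32 ± 0.13), with 1 Ang II library inside the sham range. The summed list overlapped between groups, because Ang II replicate 4, at 901 CPM, lay above 2 sham libraries. At an unadjusted p under 0.05, 2 members were lower with all 8 libraries (2.02% of all genes) and 6 without Ang II replicates 3 and 4 (6.08%). With the skeletal muscle covariate 0 were (4.98% of all genes), and 15 of 18 lay below 0.

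Lymphocyte and proliferation genes lay below 0 together, but with wide spread. All 14 T and NK cell genes (median -1.17), all 16 B and plasma cell genes (-0.69), all 15 antigen presentation genes (-0.38) and all 18 proliferation genes (-0.58) had fold changes below 0, and none of these 63 had groups apart. These medians depended on the libraries and the fit. With the skeletal muscle covariate they were -2.48 for T and NK cell genes (11 of 14 lower at an unadjusted p under 0.05, where 4.98% of all genes were), -1.27 for B and plasma cell genes (0 of 16), -0.60 for antigen presentation (0 of 15) and -1.27 for proliferation (14 of 18). Without sham replicate 1 and Ang II replicate 4, 8 of 16 B and plasma cell genes were lower at that p (median -1.42, 2.0% of all genes). Without Ang II replicates 3 and 4, 10 of 18 proliferation genes were (median -1.07, 6.08% of all genes). Each of these fits kept sham replicate 2. That library held 119.9 CPM of the T and NK cell list, where the other 7 libraries held between 10.7 and 32.8. Of the B and plasma cell list it held 1660.0 CPM, where they held between 430 and 959. For both sums every other sham library lay inside the range of the Ang II libraries. Cd3d, a part of the T cell receptor complex, was at 0.637, 6.77, 1.45 and 0.558 CPM in sham and 0.159, 0.332, 1.07 and 0.684 CPM in Ang II (-2.08 ± 0.91). Spag5, a mitotic spindle gene outside these lists, was at 1.67, 2.02, 3.37 and 2.29 against 0.893, 0.932, 1.25 and 1.16 CPM (-1.15 ± 0.27), without overlap.

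The immunoglobulin segment Igkv3-10 had the largest negative value among the named genes, at 1.301, 8.01, 1.82 and 0.287 CPM in sham and 0.0595, 0.104, 0.0656 and 0.2104 CPM in Ang II (-4.85 ± 1.04). Its sham values spanned more than an order of magnitude, and near-identical segments can share its reads. Scimp, an adaptor in antigen-presenting cells, was apart as well, at 0.425, 0.583, 0.683 and 0.438 against 0.139, 0.124, 0.115 and 0.158 CPM (-2.01 ± 0.3).

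Axl, the receptor the series is about (chr7:25757273-25788705), was at 126, 125, 107 and 116 CPM in sham and 102, 86.8, 95.9 and 99.6 CPM in Ang II, 0.8101-fold (-0.3 ± 0.11), with every Ang II library below every sham library. Mertk, its relative on phagocytes, lay the other way, at 18.2, 15.8, 13.6 and 16.8 against 18.4, 21.3, 20.6 and 25.2 CPM (0.41 ± 0.13), also apart but by a narrow gap. Over all genes 1.72% were apart below sham and 1.40% above. The fold change of Mertk was -0.74 at 2 months, where it was called lower (adjusted p = 0.0346, edgeR), and 0.55 at 4 months. That of Axl was -0.58 and 0.11, not called at either time. The third receptor, Tyro3, ranged so widely, at 1.67, 7.15, 19.3 and 8.74 against 5.99, 3.31, 10.5 and 6.36 CPM (-0.49 ± 0.62), that leaving out sham replicate 3 turned its sign. The ligands Gas6 (-0.2 ± 0.21) and Pros1 (-0.16 ± 0.15) overlapped between groups. Of these 5 genes, 1 was lower and 1 higher at an unadjusted p under 0.05 with all 8 libraries. Without sham replicate 1 and Ang II replicate 4, 0 were lower and 1 higher. Without Ang II replicates 3 and 4, and likewise with the skeletal muscle covariate, 1 was lower and 0 higher. Over all genes 2.0% to 6.08% were lower and 2.67% to 5.72% higher at that p in these fits.

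In the renin and adrenergic pathways, Adra1d had the smallest unadjusted p. This receptor, through which noradrenaline constricts the aorta (chr2:131545850-131562283), was at 11.3, 10.9, 12.3 and 15.2 CPM in sham and 8.29, 8.14, 7.63 and 7.21 CPM in Ang II (-0.67 ± 0.14), without overlap. Its fold changes at 2 and 4 months were -0.58 and -0.58, neither of them called (adjusted p = 0.289 and 0.364, edgeR). Among 18 vasoconstrictor and adrenergic genes, 8 lay above and 10 below 0. Adra1d was the single member apart below sham, and 1 other was apart above it (1.72% and 1.40% of all genes). Agtr1a, the Ang II receptor gene, was at 6.61, 4.36, 5.29 and 6.85 against 4.62, 5.41, 4.23 and 4.58 CPM (-0.29 ± 0.18), with overlap. Ren1, which encodes renin, was at 1.04, 0.977, 0.248 and 1.36 against 0.0397, 0.124, 0.197 and 0.263 CPM (-2.63 ± 0.63), with 1 Ang II library just inside the sham range. Of 12 renin, angiotensin and aldosterone genes, 3 lay above and 9 below 0.

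Some genes with large positive values are typical of tissues other than artery. Slc34a1, the phosphate carrier of the kidney tubule, was at 0.0797, 0.446, 0.724 and 0.438 CPM in sham and 16.8, 3.83, 1.92 and 0.789 CPM in Ang II (3.77 ± 0.98). The groups did not overlap, and Ang II replicate 1 was the highest library. Kap, an androgen-regulated kidney gene, was at 0.0531, 0.171, 0.579 and 0.332 against 14.4, 3.58, 0.738 and 0.526 CPM. Over all 16 kidney tubule genes, a list chosen after seeing these values, Ang II replicate 1 was the highest library in 14. Of the list, 7 passed the low-count filter, 6 with a fold change above 0 (median 2.91). Of these, 5 were at an unadjusted p under 0.05 (3.03% of all genes) and 4 had Ang II entirely above sham (1.40%). Without Ang II replicates 3 and 4, 14 passed and 13 lay above 0 (median 4.16), all 13 at that p (5.72% of all genes). Without sham replicate 1 and Ang II replicate 4, 8 of 9 lay above 0 (median 3.82). Since genes near 0 in sham can pass the filter only through Ang II libraries, these counts describe the list and support nothing. The summed list in the plot of marker lists is mostly Lrp2, an endocytic receptor that is not confined to the kidney, at 121, 39.3, 41.6 and 46.3 against 42.6, 35.3, 44.6 and 51.2 CPM, and does not show the other members.

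Cartilage genes followed a like order. Col2a1, the main collagen of cartilage, was at 0.0266, 0.446, 0.166 and 1.13 CPM in sham and 8.39, 3.58, 2.38 and 0.999 CPM in Ang II (3.08 ± 0.93), and Acan, its main proteoglycan, at 0.239, 1.85, 0.724 and 3.34 against 16.8, 6.21, 3.903 and 1.31 CPM (2.19 ± 0.88). Comp, a matrix protein of cartilage and tendon, was at 3.56, 4.22, 3.37 and 7.004 against 15.6, 11.8, 8.56 and 6.57 CPM (1.23 ± 0.32). Ang II replicate 1 was again highest and sham replicate 4 the highest of its group for all 3, and the groups overlapped. Col9a3, another cartilage collagen chain, had the same order without overlap, and was named after its values were seen. It was at 0.425, 0.274, 0.31 and 0.483 against 1.37, 1.16, 0.919 and 0.736 CPM (1.49 ± 0.29). Spp1, which encodes osteopontin and is made by bone cells and macrophages, was at 0.212, 0.737, 0.558 and 0.649 against 1.65, 0.994, 1.59 and 1.58 CPM (1.41 ± 0.37), without overlap. Among 12 osteochondrogenic genes measured, 9 lay above 0 (median 0.41, and 0.17 with the skeletal muscle covariate).

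In fat, 10 of 15 general adipocyte genes and 8 of 14 brown adipocyte genes lay above 0. Retn, an adipocyte hormone gene, was at 60.2, 50.9, 42.9 and 60.4 CPM in sham and 70.9, 91.1, 84.3 and 73.7 CPM in Ang II (0.58 ± 0.14). Prdm16, a regulator of brown fat identity, was at 13.3, 19.4, 16.6 and 18.4 against 28.5, 26.3, 27.01 and 19.9 CPM (0.59 ± 0.16). Both were apart, each the single member of its list to be so, where 1.40% of all genes were apart above sham. Vipr2, a receptor for vasoactive intestinal peptide that was named after its values were seen, was at 1.51, 1.303, 1.08 and 1.54 against 3.73, 2.86, 2.43 and 1.95 CPM (1.02 ± 0.25), without overlap.

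The Ang II effect at 6 months was then set against the mean of the effects at 2 and 4 months in a fit of all 24 libraries. The earlier times have their own sham groups, so no control library is shared between the times. The difference passed an adjusted p of 0.05 in 63 of 19218 genes (0.328%), with 26 (0.135%) higher and 37 (0.193%) lower at 6 months than before, and 2270 had an unadjusted p under 0.05. Of the 61 with values at every time, 35 were above 0 at both earlier times and below 0 at 6 months, 24 the reverse, and 2 neither. Choosing genes by this difference itself favours opposite signs, so these counts only describe the genes chosen. In 32 the effect had been called at 2 months and in 10 at 4 months, while 0 were called at 6 months. Library type and time cannot be told apart, since every 6-month library carried a larger chromosome M share than all earlier ones and 2182 to 3771 unscaled CPM of the 7SK RNA gene Rn7sk, against 2.1 to 15.4 CPM in the earlier 16. With the replicate number as a block, 7 of the 63 genes passed, all lower at 6 months, so that each gene given below as higher at 6 months was lost under it. Of those given below as lower, Cd68, Ccl8, Uap1l1, Hcar1 and Nr4a2 were lost as well. The replicate numbers were not found to pair the libraries.

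**Figure D5:**
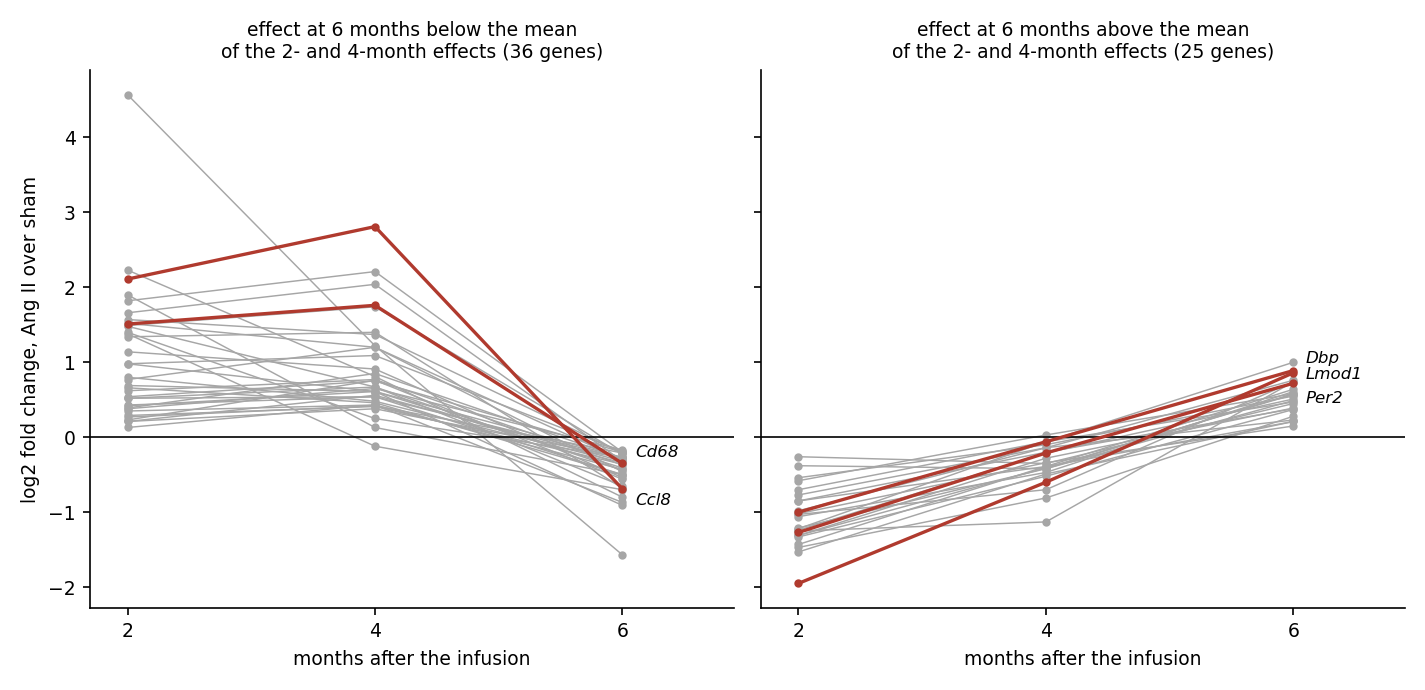
log2 fold change of Ang II over sham at 2, 4 and 6 months for the 61 genes whose 6-month effect differed from the mean of the earlier ones and which had a value at every time, 1 line per gene. In the left panel lie genes whose effect was lower at 6 months, such as Cd68 and Ccl8, and in the right panel those whose effect was higher, such as Lmod1, Per2 and Dbp. Of the lines, 35 go from above 0 at both earlier times to below 0 and 24 the reverse, which choosing genes by that difference favours.

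Of 18 macrophage genes, 4 passed this test, all with a lower effect at 6 months, where 0.193% of all genes did. Ms4a7, a gene of resident macrophages, had fold changes of 1.66 and 2.04 at 2 and 4 months and -0.32 ± 0.24 at 6 months, a difference of -2.14 ± 0.29 (adjusted p = 0.00386, edgeR). Cd68, a lysosomal protein of macrophages, went from 1.51 and 1.76 to -0.35 ± 0.24 (difference -1.97 ± 0.29, adjusted p = 0.00394). Mpeg1, which encodes a pore-forming protein of phagocytes, went from 1.34 and 1.4 to -0.68 ± 0.3 (difference -2.02 ± 0.36, adjusted p = 0.01899).

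At 6 months itself the levels of these genes overlapped between groups. Ms4a7 was at 2.92, 3.04, 2.32 and 1.68 CPM in sham and 2.34, 2.01, 1.97 and 1.63 CPM in Ang II, and Cd68 at 9.19, 10.5, 7.28 and 7.09 against 5.81, 5.01, 5.904 and 10.1 CPM. Ccl8, a chemokine of macrophages, went from 2.11 and 2.81 to -0.69 ± 0.29 (difference -3.12 ± 0.53, adjusted p = 0.0112). Hpgds, a prostaglandin synthase of macrophages and mast cells, went from 1.49 and 1.74 to -0.23 ± 0.25 (difference -1.83 ± 0.29, adjusted p = 0.007404), and Ptafr, the receptor for platelet-activating factor, from 1.14 and 0.91 to -0.54 ± 0.15 (difference -1.53 ± 0.22, adjusted p = 0.00386).

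Away from macrophage genes, Mmp14 went from 0.52 and 0.67 to -0.44 ± 0.1 (difference -1.01 ± 0.14, adjusted p = 0.00386), and it was apart below sham at 6 months. Apcdd1, an inhibitor of Wnt signals, went from 0.66 and 0.46 to -0.5 ± 0.13 (difference -1.04 ± 0.16, adjusted p = 0.00506). Uap1l1 went from 0.39 and 0.85 to -0.28 ± 0.13 (difference -0.88 ± 0.13, adjusted p = 0.00506), and Hcar1, the lactate receptor of fat cells, from 1.48 and 0.67 to -0.65 ± 0.21 (difference -1.7 ± 0.28, adjusted p = 0.0101). Nr4a2 had been called higher at 2 months (1.38) and differed by -1.3 ± 0.27 (adjusted p = 0.0386). The difference for Nr4a1, 3.09 at 2 months, was -2.66 ± 0.64 and did not pass (adjusted p = 0.0751).

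Clock and contractile genes made up 10 of the 26 genes with a higher effect at 6 months, 5 of 19 and 5 of 20 on their lists. Over all genes this share was 0.135%. Without Ang II replicate 3, only Bhlhe41 of these 10 still passed (adjusted p = 0.0164, edgeR). Bhlhe41 had fold changes of -1.06 and -0.47 before and 0.61 ± 0.13 at 6 months (difference 1.4 ± 0.2, adjusted p = 0.00386). Per2 went from -1.27 and -0.21 to 0.72 ± 0.18 (difference 1.47 ± 0.26, adjusted p = 0.0137), and Dbp from -1.0 and -0.06 to 0.89 ± 0.21 (difference 1.42 ± 0.27, adjusted p = 0.0278). Nr1d2 (0.89 ± 0.17) and Tef (0.88 ± 0.18) were the other clock genes that passed. The median of the clock list was -0.42 at 2 months, -0.13 at 4 months and 0.33 at 6 months.

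Contractile genes had been low at 2 months (list median -1.55) and 4 months (-0.70), against 0.41 at 6 months. Lmod1 went from -1.95 and -0.6 to 0.86 ± 0.29 (difference 2.15 ± 0.39, adjusted p = 0.02098). Mylk, from -1.24 and -0.21 to 0.51 ± 0.14 (difference 1.27 ± 0.25, adjusted p = 0.02905), and Ppp1r12b, from -1.21 and -0.42 to 0.49 ± 0.14 (difference 1.33 ± 0.26, adjusted p = 0.0278), passed too. Enah, a regulator of actin filaments, went from -1.31 and -0.28 to 0.39 ± 0.14 (difference 1.2 ± 0.22, adjusted p = 0.01899), and Dysf from -0.58 and 0.03 to 0.58 ± 0.1 (difference 0.89 ± 0.14, adjusted p = 0.00956). Neither Acta2 (difference 2.01 ± 0.58, adjusted p = 0.148) nor Myh11 (difference 1.89 ± 0.53, adjusted p = 0.134) passed.

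The number of these genes depended on single libraries. It was 10 without Ang II replicate 3, 14 without sham replicate 2, 21 without sham replicate 3, 35 without Ang II replicate 2 and 37 without sham replicate 1, and between 53 and 74 without each of the others. All 10, 14 and 21 genes of the first 3 counts were among the 63. Against the 4-month effect alone, 9 genes differed, all lower at 6 months.

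Genes called at the earlier times can also be followed without a new test. Of 61 called higher in Ang II at 2 months (297 of 16421 genes, 1.81%, were called there in either direction), 48 (78.7%) had a fold change below 0 at 6 months, where 54.8% of all genes do, and 10 were apart below sham (1.72% of all genes). Klhl25, an adaptor of a ubiquitin ligase, had a log2 fold change of 1.36 at 2 months and was at 13.8, 18.3, 18.6 and 18.5 against 13.2, 10.1, 10.7 and 7.73 CPM at 6 months (-0.73 ± 0.18). Cebpb, a stress-responsive transcription factor, was 1.59 at 2 months and -0.33 ± 0.14 at 6 months, and Sgk1, a kinase induced by corticosteroids, 1.37 and -0.16 ± 0.12.

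Of 236 called lower at 2 months, 234 were measured at 6 months, and 120 (51.3%) lay above 0 where 45.2% of all genes do. Of the genes called at 4 months (114 of 16127, 0.707%), 20 of the 22 higher ones that were measured (90.9%) lay below 0 at 6 months, and 60 of the 91 lower ones (65.9%) above 0. The last share was 27.5% without Ang II replicate 2 and 96.7% without Ang II replicate 4, so that leaving out 1 library changed its direction.

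DESeq2, the tool named in the submitters' processing notes, called genes where edgeR called 0. Refitted on the same 8 libraries, its Wald test passed 63 of 21207 genes (0.297%), 53 higher and 10 lower, and the authors' deposited table lists 68 of 21868 (0.311%), 57 higher and 11 lower, which include all 63. By DESeq2, Mcf2l (adjusted p = 3.43e-06), Myh2 (8.32e-09), Lrtm1 (1.16e-04), Bhlhe41 (0.0468) and Dysf (0.0144) were higher. Fbn1 (0.0144), Nr4a1 (0.03203), Nr4a3 (0.0208), Pi16 (0.03203), Npas2 (0.0357) and Adra1d (0.0401) were lower. These calls were not equally firm in 3 alternatives chosen after seeing the data (without Ang II replicates 3 and 4, without sham replicate 1 and Ang II replicate 4, and with the skeletal muscle covariate). Mcf2l and Myh2 were called in all 3, Lrtm1 and Npas2 in 2, and Dysf, Fbn1, Nr4a1, Nr4a3 and Pi16 in 1, while Bhlhe41 and Adra1d were called in 0.

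Of the 53 higher genes, Ang II replicate 3 was the highest library in 36, replicate 4 in 8, replicate 1 in 7 and replicate 2 in 2. Skeletal muscle genes were among them, such as Myh4 at 0.664, 20.2, 16.1 and 19.7 CPM in sham and 44.6, 53.7, 640.2 and 422 CPM in Ang II, and Klhl41, a sarcomere protein gene, at 4.44, 11.7, 11.4 and 14.8 against 14.1, 23.6, 97.5 and 80.9 CPM. Tbx15, a transcription factor of skeletal muscle and fat, was at 0.903, 2.19, 1.78 and 2.97 against 2.92, 4.87, 25.8 and 18.8 CPM. Klhl41 and Tbx15 were called in 0 of the 3 alternatives, and Myh4 in 0 of the 2 that gave it an adjusted p. Without Ang II replicates 3 and 4, DESeq2 called 158 genes, 84 higher and 74 lower, of which 20 were among the 63. Without sham replicate 1 and Ang II replicate 4 it called 19, of which 8 were shared, and with the skeletal muscle sum as a covariate 41, of which 8 were shared and 31 were lower.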

How the data were processed

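RNA of 24 aortic homogenates was sequenced, and the 8 of the 6-month time were compared, 4 per group. Libraries were made with an mRNA kit from column-purified total RNA, per the labels' protocols. Cutadapt, FastQC, STAR, featureCounts and DESeq2 and the build mm10 are named in the submitters' processing notes. No version, strand setting or rule for reads shared between genes is stated there. The authors deposited raw gene counts, and from DESeq2 a mean normalised signal, a log2 fold change with its error, a score (the Wald statistic) and p-values per gene; of their table only the calls at 6 months, and at the earlier times as an alternative, were used.

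From the counts, genes were filtered with filterByExpr (minimum count 10, total 15), scaled by TMM and tested with edgeR 4.0.16 (quasi-likelihood F test, Benjamini-Hochberg adjusted p under 0.05) in R 4.3.3. The effect at 6 months was set against the mean of the 2- and 4-month effects in a fit of all 24 libraries. DESeq2 1.42.0 and limma 3.58.1 (voom) were alternatives. The tests were tried on simulated counts with planted changes. The depth was 37639960 to 58676098 counts per library, of which 12477831 to 34905962 lay outside chromosome M, ribosomal RNA and 7SK RNA genes, and no library was left out.

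Genes were named by a rule: up to 12 called per direction, filled to 10 by the smallest p where fewer passed, with a mean CPM of at least 1; 5 per direction from the authors' calls; up to 3 members of each of 40 lists by p; the TAM family, Agtr1a, Col1a1, Col3a1, Eln and Acta2; 6 per direction called at each earlier time; and 10 from the comparison of times. Further genes were added after their values were seen: Dbp, Nr1d1, Nr1d2, Per2, Per3, Ciart, Tef, Nfil3, Fos, Egr1, Zfp36, Lmod1, Myh11, Tagln, Acta1, Myh4, Klhl41, Tbx15, Acan, Col9a3, Slc34a1, Kap, Lrp2 and Vipr2. The members and lists were chosen with earlier results of these data known, and the kidney list (16 genes) after seeing these values. Same-numbered libraries of the 2 groups correlated at 0.118, 0.203, 0.525 and -0.158, so replicate numbers were not taken to pair them. Some genes that the rule names are not reported here.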

Additional observations from a re-analysis of the deposited data

Results flagged for a closer look

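Several libraries lay far from the other 3 of their group by Dixon's test, which flags about 1 in 20 groups by chance. In sham these were replicate 1 for Mcpt4 (30.2 CPM), Tpsb2 (30.9), Fos (7.86), Mybpc2 (4.22, the lowest), Klhl25 (13.8, the lowest), the neutrophil and mast cell sum (129.8 CPM) and the kidney tubule sum (123.0 CPM, of which Lrp2 made up 121 CPM). Sham replicate 2 was high for Mmp12 (1.17 CPM), Cd3d (6.77 CPM), the T and NK cell sum (119.9 CPM) and the B and plasma cell sum (1660.0 CPM). Sham replicate 4 was low for Nr4a2 (5.24 CPM) and high for Tef (95.2 CPM). In Ang II, replicate 1 was high for Col1a1 (336 CPM) and the kidney tubule sum (105.2 CPM), replicate 2 low for Spp1 (0.994 CPM), replicate 3 high for Sgk1 (42.5 CPM) and replicate 4 high for the macrophage sum (901.3 CPM). Before scaling, Lars2 reached 1054.5 CPM in 1 sham library and 35974.9 in Ang II replicate 4, and the ribosomal RNA gene CT010467.1 reached 3325.4 and 136415.6 CPM.

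The Ang II effect at 6 months differed from the mean of the 2- and 4-month effects in 63 genes by edgeR's test of that difference. On the log2 scale the difference was 0.89 for Dysf, 1.4 for Bhlhe41, 1.47 for Per2, 1.42 for Dbp, 0.89 for Nr1d2 and 0.88 for Tef. It was 1.27 for Mylk, 1.33 for Ppp1r12b, 2.15 for Lmod1 and 1.2 for Enah. Lower effects at 6 months were those of Mmp14 (-1.01), Mpeg1 (-2.02), Ccl8 (-3.12), Nr4a2 (-1.3), Hcar1 (-1.7), Cd68 (-1.97), Ms4a7 (-2.14), Uap1l1 (-0.88), Hpgds (-1.83), Ptafr (-1.53) and Apcdd1 (-1.04).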

How the results depend on the processing

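The count of 0 called genes at 6 months was the same in edgeR with DESeq2 size factors, with other filters on low counts, without chromosome M and ribosomal RNA genes, with the chromosome M share as covariate, in a fit of all 24 libraries and without each library in turn (0 in all 8), and in limma voom. DESeq2 called 63 (53 higher, 10 lower). In DESeq2, 3 alternatives chosen after seeing the data gave 19 (14 higher, 5 lower) without sham replicate 1 and Ang II replicate 4, 158 (84 and 74) without Ang II replicates 3 and 4, and 41 (10 and 31) with the skeletal muscle covariate. With the replicate block, 0 genes were called at 6 months and 7 genes differed between the times, 0 higher and 7 lower. Against 4 months alone 9 differed, 0 higher and 9 lower. Leaving out 1 library at 6 months gave 10 to 74 genes, 2 to 41 higher and 8 to 34 lower; the cause was not tested. The share of genes higher at 2 months that lay below 0 at 6 months was 90.9% at an earlier adjusted p of 0.01 and 68.9% to 83.6% without 1 library. For genes lower at 2 months the share above 0 was 46.2% to 62.4%, for genes higher at 4 months the share below 0 was 72.7% to 90.9%, and for genes lower at 4 months the share above 0 was 27.5% to 96.7%. The difference in chromosome M share was -0.65 to 8.54 points without 1 library, and -0.10 without Ang II replicate 4.

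Signs turned for 7 of 93 named genes tested. Without Ang II replicates 3 and 4 the log2 fold change in edgeR and DESeq2 was 0.05 and 0.04 for Pros1, 0.01 and 0.01 for Hpgds, -0.35 and -0.35 for Egr1, and -0.59 and -0.59 for Fos. With the skeletal muscle covariate it was 0.28 and 0.27 for Hpgds, -0.24 and -0.26 for Acta1, -0.19 and -0.21 for Egr1, and -0.03 and -0.05 for Myh11. Hpgds was 0.00 in limma voom, and Tyro3 was -0.84 to 0.16 without 1 library, with the last value without sham replicate 3. In simulated counts the edgeR test recovered 0% of 1.5-fold changes planted in genes with an average log2 CPM above 0. Depth and the number of libraries were not varied, and what they limit was not tested.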
